A study of Mus musculus with 12 samples.

Results

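The 6 control livers of a mouse feeding study were examined alone, as a description of which transcripts a laboratory mouse liver holds and how far single livers differ. They are the 6 libraries labelled as control of 12 liver RNA sequencing libraries, and the other 6, from mice given selenium-enriched Aspergillus oryzae A02, were not used for any value below. The donors were wild-type male C57BL/6J mice, 6 weeks old at the start after 7 days of acclimatization, on a normal diet, and the treatment label reads No treatment. Whether controls were gavaged with saline is not stated. The protocol speaks of 10 mice per group, the design text of 8 weeks of feeding, and the sample descriptions of 14 weeks, which may be an age or a duration. One label names the cell type as hepatocyte, while transcripts of other liver cells were also measured (below), so the values are read as whole liver. No label gives a time of day, a fasting state or a batch.

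Hepatocytes make most of the proteins of blood plasma, including albumin, the apolipoproteins that carry lipids, clotting and complement factors, and protease inhibitors of the serpin family. They also store and release glucose, make urea and bile acids, oxidize and synthesize fat, and detoxify drugs with cytochrome P450 enzymes. Male mice additionally secrete major urinary proteins, small lipocalins that leave the liver by blood and carry pheromones in urine. During inflammation, cytokines such as interleukin-6 make hepatocytes raise a set of secreted proteins called the acute phase proteins.

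Abundance was read from TPM (transcripts per 1000000), which divides reads by transcript length and scales every library to the same total. A share of TPM is therefore a share of transcripts, in the sense of that estimate, and a gene with a large share lowers the values of all others. The table listed 57010 genes. Of these, 18537 to 19496 per library had a value above 0 and 10023 to 10471 reached 1 TPM. In all 6 controls together 8955 genes had a TPM of at least 1, and variation was described for these.

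Single libraries stood apart, and this bears on much of what follows. Control 6 held transcripts of lung epithelium that the other controls lacked. Scgb1a1, the secretoglobin of airway club cells, was at 4362 TPM there, and Sftpc, a surfactant protein of alveolar cells, at 788 TPM, and both were listed at 0 in controls 1 to 5. Sftpb, Scgb3a2 and Cxcl15 were at 31.0, 26.0 and 20.4 TPM in control 6 and at 0 in the others. Over a list of 15 lung epithelium genes, written after these values were seen, the summed level was 5447 TPM in control 6 and 18.2 to 27.0 TPM in controls 1 to 5, where Hopx gave most of it. Control 6 also had the highest globin level and the lowest acute phase and metallothionein levels. The part that lung transcripts have in other values of control 6 was not tested. Control 5 had the highest acute phase level and the lowest share of major urinary protein transcripts. Across the 8955 genes, Pearson correlations of log2(TPM) between 2 controls ran from 0.944 (controls 5 and 6) to 0.989 (controls 1 and 3). These are across genes, which are not independent, and no control was a copy of another.

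Counts of genes by library were uneven too. Of the 8955 genes, control 6 was the highest library for 2631 (29.4%) and control 5 the lowest for 2710 (30.3%). Control 5 was also the highest for 1743 genes (19.5%). These counts depend on the scaling. With median-of-ratios scaling, which sets the typical gene equal between libraries, control 6 was highest for 1791 genes and control 5 for 2120. Without mitochondrial-encoded genes, control 6 was highest for 2465 and control 5 for 2484. Control 5 was lowest for 2361 genes with median-of-ratios scaling and for 1910 without mitochondrial-encoded genes. Dixon's ratio compares the gap between the outermost library and its neighbour with the whole range. For normally distributed values it flags about 1 in 20 groups by chance. TPM values need not be normally distributed, so that rate is no exact baseline here. By this ratio 823 genes (9.19%) had 1 library apart. Control 6 was the high library apart for 246 genes, control 5 for 212 and control 4 for 142. Leaving out control 5 gave 9097 genes with at least 1 TPM in all remaining controls, and leaving out control 6 gave 9050.

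**Figure D1:**
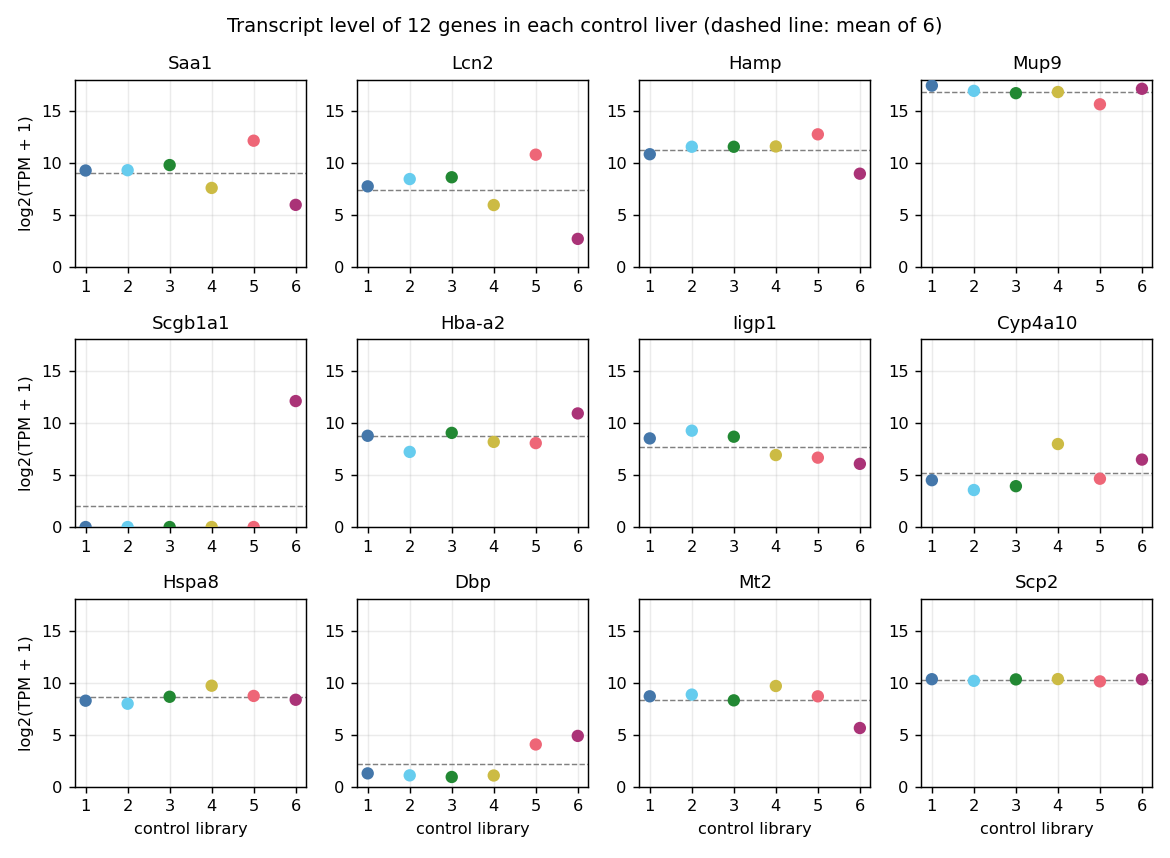
Transcript level of 12 genes as log2(TPM + 1) (vertical axis) in control libraries 1 to 6 (horizontal axis), with the mean of 6 as a dashed line. Saa1, Lcn2 and Hamp are highest in control 5 and lowest in control 6, Scgb1a1 is above 0 in control 6 alone, Cyp4a10 and Hspa8 are highest in control 4, Dbp is high in controls 5 and 6, and Scp2 lies near the same level in all 6.

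The sequences just upstream of 5 genes are shown because these genes mark the ends of the data: Alb and Mup9 are defining, highly abundant liver transcripts, and Hpx, Hamp and Saa1 are acute phase genes that separated controls 5 and 6. Each is the 250 bases before the gene's start in RefSeq on GRCm38.p6, 5′ to 3′ in the direction of transcription, and capitals mark matches on either strand to 5 short motifs. The motif TATAAA and its variant TATATA are forms of the TATA box and can overlap each other. The motif GTTAAT is a partial site of the liver factor HNF1, the pattern TTCNNNGAA has the spacing bound by STAT factors, and the motif CCAAT is bound by several factors.
Alb: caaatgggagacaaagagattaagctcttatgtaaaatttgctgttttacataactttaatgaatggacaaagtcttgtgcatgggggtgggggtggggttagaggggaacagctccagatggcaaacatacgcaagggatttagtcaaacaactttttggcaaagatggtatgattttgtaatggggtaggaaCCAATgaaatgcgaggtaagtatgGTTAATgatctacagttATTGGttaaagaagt
Mup9: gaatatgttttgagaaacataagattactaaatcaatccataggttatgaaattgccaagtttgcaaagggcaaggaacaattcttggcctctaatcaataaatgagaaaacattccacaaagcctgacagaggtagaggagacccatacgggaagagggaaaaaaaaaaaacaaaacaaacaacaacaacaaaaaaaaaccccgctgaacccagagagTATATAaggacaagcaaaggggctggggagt
Hpx: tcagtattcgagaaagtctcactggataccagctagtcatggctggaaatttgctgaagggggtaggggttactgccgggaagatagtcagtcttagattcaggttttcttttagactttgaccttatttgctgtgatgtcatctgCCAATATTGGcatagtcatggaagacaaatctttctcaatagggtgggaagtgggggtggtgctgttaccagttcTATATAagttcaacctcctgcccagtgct
Hamp: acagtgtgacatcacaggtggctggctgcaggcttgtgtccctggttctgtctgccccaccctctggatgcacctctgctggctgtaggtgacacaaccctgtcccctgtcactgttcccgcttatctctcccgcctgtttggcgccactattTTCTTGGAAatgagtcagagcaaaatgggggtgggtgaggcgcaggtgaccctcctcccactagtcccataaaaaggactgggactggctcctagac
Saa1: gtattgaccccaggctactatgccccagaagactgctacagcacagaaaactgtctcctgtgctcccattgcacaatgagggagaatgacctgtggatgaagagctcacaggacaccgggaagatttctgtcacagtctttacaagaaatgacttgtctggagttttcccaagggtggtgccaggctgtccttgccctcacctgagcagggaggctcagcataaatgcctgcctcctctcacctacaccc
The Alb window is chr5:90460620-90460869, plus strand. The Mup9 window is chr4:60421953-60422202, minus strand. The Hpx window is chr7:105600117-105600366, minus strand. The Hamp window is chr7:30944030-30944279, minus strand. The Saa1 window is chr7:46742981-46743230, minus strand. These positions belong to the RefSeq build, whereas the expression files were made on GRCm39. The windows of Mup9 and Hpx hold TATATA with its first base 31 and 29 bases before the start. The Alb window holds GTTAAT at 32 bases and CCAAT at 56 and, on the other strand, at 15 bases. The Hamp window holds TTCTTGGAA at 97 bases, and the Saa1 window holds no match to these 5 motifs. Over all 32851 windows in the table, 12.4% held TATAAA, 5.25% TATATA, 6.43% GTTAAT, 7.02% TTCNNNGAA and 33.8% CCAAT. Among the 100 most abundant genes, 59 had a window in the table. Of their 70 windows 22.9% held TATAAA or TATATA in the last 50 bases, against 4.47% of all windows. For the 500 most abundant genes the share was 11.5%. Close copies such as the urinary protein genes can share letters, so these windows are not independent. These matches are descriptions of letters and not of binding, which was not measured here.

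A few genes held most of the transcripts. The most abundant, Mup9, a major urinary protein, averaged 120014 ± 41933 TPM (SD, n = 6) of the total of 1000000 TPM per library. The 10 most abundant genes held 37.6 ± 3.31%, the top 100 held 72.0 ± 1.70% and the top 1000 held 90.9 ± 0.346%. In single libraries 16 to 23 genes made up 50% of the total and 790 to 896 genes made up 90%. There were 89 genes with a mean of at least 1000 TPM, with 71.0% of the total, and 719 with at least 100 TPM, with 88.7%. Across the 6 controls, 6 genes were in the top 10 and 78 in the top 100 of every library.

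**Figure D2:**
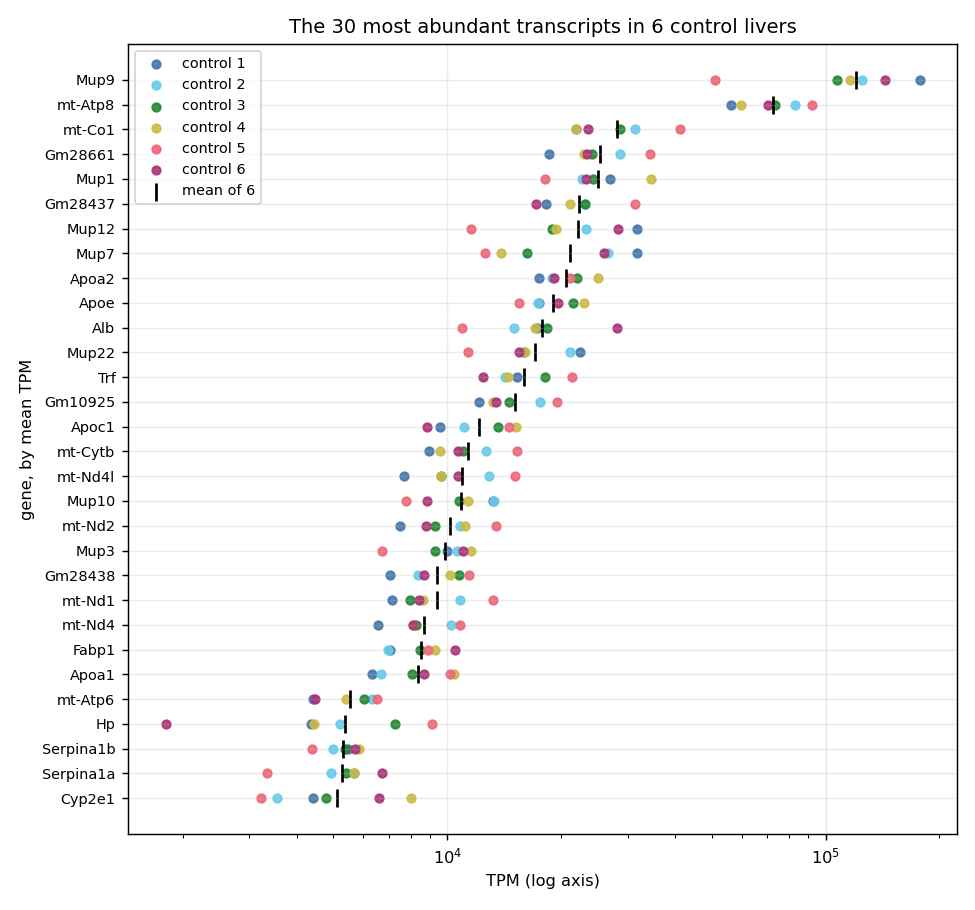
The 30 genes with the highest mean TPM (vertical axis) and their TPM in each control on a log axis (horizontal axis), with 1 colour per library and a bar at the mean of 6. Mup9 leads in 5 of 6 libraries and is lowest in control 5, and the mitochondrial-encoded genes and their copies are highest in control 5.

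The major urinary protein family had the largest mean share of any class when clone-named copies are left out, 24.1 ± 6.82% of TPM, though in control 5 mitochondrial mRNAs held more. Its share was 33.5%, 26.2%, 21.6%, 23.5%, 12.97% and 27.1% in controls 1 to 6, so control 5 was lowest and control 1 highest. Mup9 itself was at 177358, 125096, 107192, 115822, 51133 and 143486 TPM. It ranked 1 in controls 1, 2, 3, 4 and 6 and 2 in control 5. Mup9 held 48.7 ± 5.00% of the family, Mup1 10.9 ± 2.92%, Mup12 9.12 ± 0.744% and Mup7 8.73 ± 1.66%. Family members differ in few bases: over the aligned part, most of the other members' transcripts were 98.5 to 99.7% identical to that of Mup9, with Mup3 at 86.1% and Mup20 at 91.1%. How reads were divided among near-identical members is therefore uncertain, and the family total is firmer than any member. The values listed for the members did not run in parallel, and the part of read division in this was not tested. Mup1, 99.4% identical to Mup9, was highest in control 4, at 34536 TPM. Mup21, 87.4% identical, ran from 284 TPM in control 5 to 1379 TPM in control 6. Without control 5 the family share averaged 26.4%.

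Messenger RNAs encoded by the mitochondrial genome, 13 subunits of the respiratory chain and ATP synthase, came next with 17.1 ± 3.43% of TPM. Their share was lowest in control 1 (13.1%) and highest in control 5 (22.6%), the reverse of the urinary proteins. Shares add up to the same total in each library, so a high share of one class lowers those of the others. The level of mt-Co1, the catalytic subunit of cytochrome oxidase, was 21917, 31446, 28628, 21894, 41221 and 23560 TPM in controls 1 to 6, and control 5 was again the highest. mt-Atp8, a subunit of ATP synthase, led the group at 72526 ± 13615 TPM and was the most abundant transcript of control 5, at 92057 TPM. It has 204 bases, and mt-Atp6, whose reading frame overlaps it and which is carried on the same mature RNA, has 681 bases and stood at 5524 ± 919 TPM. TPM is per length, and reads of a shared RNA can be given to either gene. Mitochondrial rRNAs held 0.210 ± 0.0374% and the 22 mitochondrial tRNAs were listed at 0.

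Some abundant transcripts were listed under the names of nuclear copies of mitochondrial genes. Gm28661, a pseudogene whose transcript is 100% identical to mt-Co2 over its 681 bases, averaged 25322 TPM, whereas mt-Co2 itself was at 930 ± 400 TPM. Gm28437 matched mt-Co3 at 100% and averaged 22348 TPM, against 1783 ± 317 TPM for mt-Co3. Gm10925, Gm28438 and Gm10222 matched mt-Atp6, mt-Nd3 and mt-Nd4l at 99.7 to 100% identity, with means of 15080, 9414 and 4748 TPM. In all, 8 clone-named genes matched a mitochondrial mRNA at 95% identity or more over at least 80% of their length, and these held 7.79 ± 1.51% of TPM. Which locus the reads came from cannot be told from the table. Counted together, mitochondrial RNAs and these copies held 25.1 ± 4.91% of TPM, slightly more than the urinary proteins on average. Some copies varied widely between libraries. Gm29216, a copy of part of mt-Co1, was at 2090, 75.6, 398, 153, 38.1 and 1526 TPM, and Gm28439, a copy of part of mt-Nd4, was at 1450 TPM in control 5 and at 0 in the others.

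**Figure D3:**
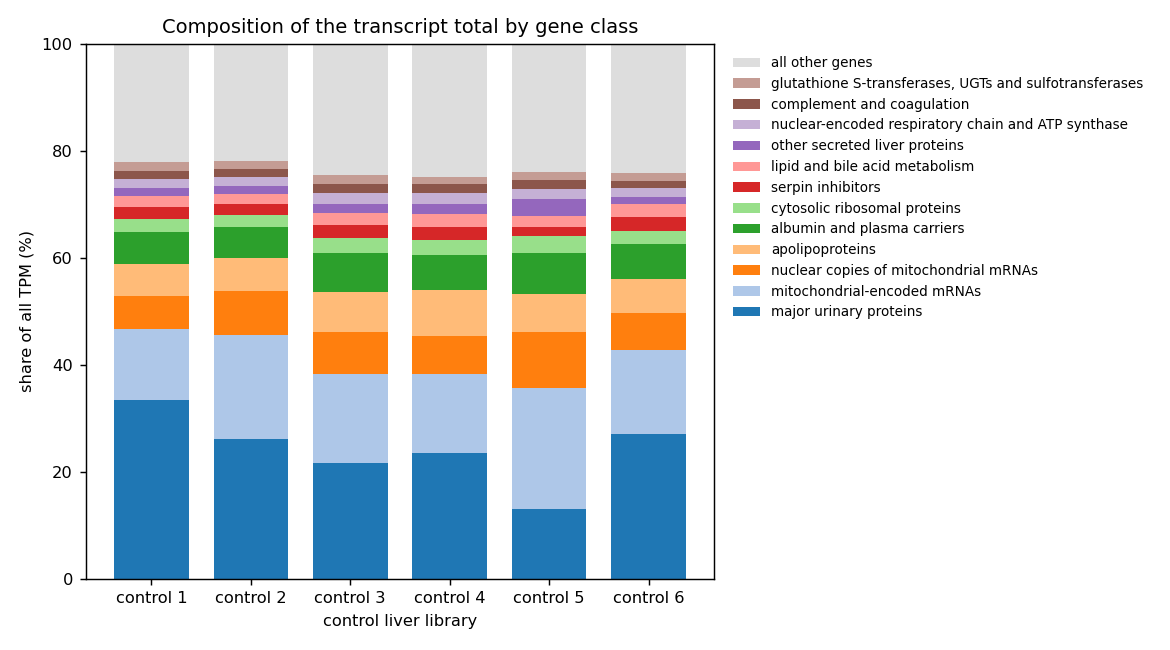
Share of all TPM (vertical axis, percent) held by the 12 largest named gene classes in each control (horizontal axis), with all other genes in grey. Major urinary proteins take 12.97 to 33.5%, and mitochondrial mRNAs 13.1 to 22.6%, while apolipoproteins and plasma carriers each stay between 5.74 and 8.64%.

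Secreted plasma proteins other than the urinary proteins held 19.3 ± 1.98%. Apolipoproteins, which form the protein part of lipoproteins, held 7.02 ± 0.981%. Apoa2 and Apoa1 of high density lipoprotein averaged 20632 ± 2730 and 8394 ± 1713 TPM, Apoe, a ligand of lipoprotein receptors, 19062 ± 2842 TPM, and Apoc1 12152 ± 2700 TPM. Apoa2 was at 17476, 18970, 22048, 25101, 21093 and 19102 TPM in controls 1 to 6, a narrow range beside that of Mup9. Albumin and other carriers held 6.62 ± 0.742%. Alb, the main plasma protein, was at 17245, 14996, 18369, 17041, 10946 and 28130 TPM, lowest in control 5 and highest in control 6, and ranked 11 by mean. Trf, the iron carrier transferrin, went the other way, with its highest value in control 5 (21422 TPM) and its lowest in control 6 (12452 TPM). Serpins held 2.25 ± 0.354%, and Serpina1b, an elastase inhibitor of the alpha-1-antitrypsin family, was steady at 5292 ± 532 TPM. The Serpina1 genes are also close copies of each other. Complement and clotting factors held 1.59 ± 0.173%, led by the fibrinogen chains Fgg (1729 ± 401 TPM) and Fga (1441 ± 386 TPM) and by Vtn, vitronectin (1286 ± 183 TPM).

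Metabolic enzymes took smaller shares. Lipid and bile acid genes held 2.17 ± 0.267%, led by Fabp1, the liver fatty acid binding protein, at 8540 ± 1361 TPM, and Scp2, a sterol carrier, at 1229 ± 77.7 TPM. Conjugating enzymes, the glutathione S-transferases, UDP-glucuronosyltransferases and sulfotransferases, held 1.54 ± 0.153%. Cytochrome P450 enzymes held 1.43 ± 0.309%, led by the ethanol-inducible Cyp2e1 at 5105 ± 1868 TPM and Cyp3a11 at 2570 ± 736 TPM. Cyp2e1 was at 4406, 3558, 4782, 8047, 3226 and 6610 TPM, so controls 4 and 6 were high and control 5 low. Urea cycle and amino acid enzymes held 1.46 ± 0.157%, with Bhmt, which remethylates homocysteine, at 1773 ± 294 TPM and the urea cycle enzyme Ass1 at 1266 ± 269 TPM. Antioxidant enzymes held 0.740 ± 0.0659%, led by Gpx1, a glutathione peroxidase that carries selenocysteine, at 2008 ± 350 TPM, then Sod1 at 1298 ± 215 TPM and Cat, catalase, at 896 ± 137 TPM. Genes of carbohydrate and central carbon metabolism held 0.705 ± 0.0831%.

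Genes that every cell uses held little of the total. Cytosolic ribosomal proteins had 2.64 ± 0.343%, with control 2 lowest (2.25%) and control 5 highest (3.13%). Of 44 ribosomal protein genes with a list of their own, 25 were lowest in control 2, which was the lowest library for 16.8% of all 8955 genes. Respiratory chain and ATP synthase subunits encoded in the nucleus had 1.80 ± 0.145%, far under the mitochondrial-encoded subunits of the same complexes. Proteasome and ubiquitin genes had 0.416 ± 0.0401%, histones 0.0542 ± 0.00691% and ABC transporters 0.0612 ± 0.00481%. Named genes outside all classes had 12.6 ± 0.602%. Among common reference genes the spread was uneven. Ywhaz, a 14-3-3 protein, had a coefficient of variation (CV, the SD as a percentage of the mean) of 7.34%, Rplp0 11.3%, Hprt 12.9% and Ppia 13.1%. Gapdh had 17.7%, Actb 29.6%, B2m 37.0% and Tfrc, the transferrin receptor, 66.3%. B2m and Actb were highest in control 5, at 4836 and 315 TPM.

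The tissue label was checked against its markers. All 14 of 15 hepatocyte markers that were found by symbol reached 1 TPM in every control, and their sum was 128020 to 259728 TPM. The Y-linked Ddx3y and Eif2s3y were at 12.7 to 16.5 and 12.97 to 18.9 TPM. Of 20 female-biased liver genes, 1 reached 1 TPM in all 6. Markers of other liver cells were present at low levels. Kupffer cell genes included Clec4f (12.6 to 49.4 TPM), C1qa (18.1 to 31.8 TPM) and Cd5l (7.74 to 20.4 TPM), with 10 of 12 listed genes at or above 1 TPM in all controls. Sinusoidal endothelial genes had 6 of 12 at that level, with Stab1 at 5.90 to 16.8 TPM and Clec4g at 2.08 to 14.99 TPM. Stellate cell and fibroblast genes had 7 of 12, with Dcn at 27.7 to 58.4 TPM, and T and NK cell genes 0 of 10, with a sum of 3.97 to 10.8 TPM. In bulk RNA, fewer cells of a type and less RNA per cell cannot be told apart. Of 14 pancreatic acinar genes 8 were at 0 in all 6 controls, and their sum of 16.2 to 47.0 TPM came almost entirely from Cela1, an elastase, highest in control 6. Intestine and kidney markers summed to 90.4 to 144 TPM, nearly all from Fabp2, a fatty acid binding protein, with 4 of 8 at 0 in all controls, and 8 skeletal muscle genes summed to at most 1.70 TPM.

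Variation between livers was moderate for most genes. The median CV of the 8955 genes was 17.9%, with 5% of genes under 7.67% and 5% over 47.8%. There were 1074 genes under 10% and 52 genes at 100% or more. Among these filtered genes the median CV ran from 19.9% at 2 to 5 TPM to 16.0% at 10 to 50 TPM and 20.7% at 1000 TPM and above. The minimum of 1 TPM in every control removes variable genes with low means, and over all genes above 0 the median was 50.8%. The depth behind these values is unknown. Without control 5 the median was 15.9%, and without control 6 it was 16.4%. The steadiest genes were of mixed function. Map2k1, the MAP kinase kinase MEK1, had a CV of 2.00% at 11.3 ± 0.226 TPM, and its 6 values were 11.6, 11.7, 11.2, 11.2, 11.2 and 11.1 TPM. Atad1, a membrane AAA ATPase, had 2.21%, Yme1l1, a mitochondrial protease, 2.68%, Ebp, a sterol isomerase, 2.79%, and Rpn1, a subunit of the oligosaccharyltransferase, 3.21%. Single libraries set part of these small values, as the CV was 1.23% for Atad1 without control 4, 1.69% for Yme1l1 without control 6 and 1.34% for Ebp without control 5. Among genes over 1000 TPM, Scp2 had 6.32%.

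**Figure D4:**
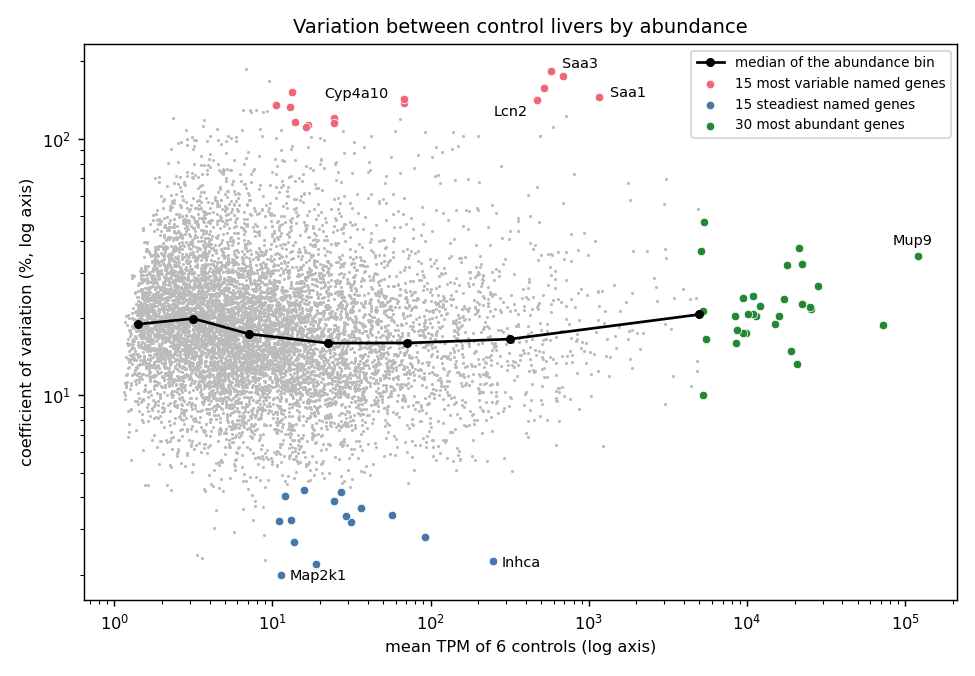
CV in percent (vertical log axis) against mean TPM of 6 controls (horizontal log axis) for the 8955 genes, with the median per abundance bin in black (the last bin is open above 1000 TPM) and named genes in colour. The median runs between 16.0 and 20.7% while single genes span from 2.00 to 183%.

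Acute phase genes varied widely, with control 5 and control 6 at opposite ends. The median CV of the list was 34.6%, against 17.9% for all 8955 genes, and other lists were higher, such as glucocorticoid-responsive genes at 52.5% and interferon-stimulated genes at 43.1%. Saa1, serum amyloid A, was at 624, 636, 896, 195, 4541 and 62.6 TPM in controls 1 to 6. Its rank among all genes ran from 35 in control 5 to 965 in control 6. Saa2 and Saa3 followed the same order of extremes, at 3114 and 2715 TPM in control 5 and 20.9 and 12.3 TPM in control 6. Lcn2, a lipocalin that binds bacterial siderophores, was at 217, 353, 398, 61.8, 1792 and 5.61 TPM. Hamp, the iron hormone hepcidin, was at 1846, 3034, 3031, 3096, 6933 and 504 TPM, and Hpx, the heme carrier hemopexin, at 4284, 4260, 6606, 3353, 9018 and 1666 TPM. Of the 5 sequences above, the Hamp and Hpx windows hold different motifs and the Saa1 window none of them. These 3 genes were shown because they separated controls 5 and 6, so their shared extremes are no result. A link between motifs and levels was not tested.

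Over the list of acute phase genes, 21 of 24 had at least 1 TPM in every control. Of these, 11 were highest in control 5, the highest library for 19.5% of all 8955 genes, and 16 were lowest in control 6, the lowest for 16.9%. The level of the list, the mean over genes of log2(TPM + 1) relative to each gene's mean, was 0.11, 0.08, 0.44, -0.30, 1.08 and -1.40 in controls 1 to 6. It covers all 24 genes. The members did not all follow. The fibrinogen chains Fga and Fgg were lowest in control 5, at 813 and 1212 TPM, and highest in control 4, as was Itih4. Crp was also lowest in control 5, at 99.7 TPM. With control 5 left out the CV of Saa1 was 71.3% in place of 145%, that of Saa3 81.4% in place of 183%, and that of Lcn2 83.5% in place of 141%.

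Some genes of white blood cells and of collagen also had extremes in control 5, while other markers of the same cell types did not. The calcium-binding proteins S100a8 and S100a9, abundant in neutrophils, were at 39.4 and 52.8 TPM there, against 2.07 to 7.15 and 6.24 to 11.4 TPM in the others. The neutrophil gene Ly6g was listed at 0 in control 5 and Mpo was at 0.17 TPM. Of the 8 neutrophil markers 2 reached 1 TPM in all controls, and the sum of the list was 96.6 TPM in control 5 and 9.50 to 19.4 TPM in the others. Lyz2 (287 TPM) and Cd68 (26.4 TPM) of macrophages, Spp1, osteopontin (266 TPM), Lgals3, galectin-3 (54.8 TPM), and the collagen genes Col1a1 (8.40 TPM) and Col3a1 (17.9 TPM) were also highest in control 5. Of the 10 measured Kupffer cell and macrophage markers, 3 were highest in control 5 and 7 in control 4, and Clec4f of resident Kupffer cells was lowest in control 5, at 12.6 TPM. Of the 7 measured stellate cell and fibroblast markers, 2 were highest and 5 lowest in control 5, and their list summed to 101 TPM there against 94.3 to 143 TPM in the others. Cholangiocyte markers, of the bile duct lining, summed to 318 TPM in control 5 and 45.1 to 67.99 TPM in the others, and Spp1 is on that list. Of these 8 markers 3 reached 1 TPM in all controls, and all 3 were highest in control 5. Spp1 and Tstd1 were highest in control 5. The duct keratin Krt19, which did not reach 1 TPM in all controls, was at 0.600 TPM there and 3.25 TPM in control 6. Cd74, the invariant chain of MHC class II, was at 293, 343, 646, 169, 1446 and 63.0 TPM, and the antigen presentation class held 1.30% of TPM in control 5 and 0.312% in control 6, and without control 5 its mean was 0.603% in place of 0.720%. Over all 8955 genes control 5 was highest for 19.5% and lowest for 30.3%. The part of these cells in the acute phase values was not tested.

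Genes induced by interferon gave another order of livers. Iigp1, an immunity-related GTPase, was at 363, 607, 406, 119, 100 and 65.9 TPM, so controls 1, 2 and 3 were high and controls 4, 5 and 6 low. Tgtp1, of the same GTPase family, was at 186, 213, 199, 20.9, 24.9 and 4.72 TPM, with the gap wider than for Iigp1. The same 3 libraries were the high ones in both genes. Of 22 measured interferon-stimulated genes, 15 were highest in control 2, the highest library for 10.3% of all 8955 genes, and 11 were lowest in control 6, the lowest for 16.9% (2313 of 8955 genes with median-of-ratios scaling). The level of that list was 0.09, 0.65, 0.34, -0.60, 0.15 and -0.65 in controls 1 to 6. It covers the 29 members with at least 1 TPM in any control. Control 5 lay above control 1, so the split seen in Iigp1 and Tgtp1 did not hold for the list. In control 5 Isg15 was at 46.8 TPM and the chemokine Cxcl9 at 119 TPM, the latter the highest of the 6. A second list, of 17 genes induced by interferon-gamma and drawn up once these values were known, had levels of 0.65, 1.12, 0.97, -1.11, -0.01 and -1.62.

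Control 4 had the highest list levels of PPAR-alpha targets with ketogenesis genes and of heat shock genes. Targets of PPAR-alpha, the receptor that switches on fat oxidation, had their highest level there (0.87, against -0.56 to 0.35 in the others). That level covers 25 genes, of which 21 reached 1 TPM in all controls, and weighs low and abundant genes alike. The summed TPM of the list was highest in control 6, at 12763.9 TPM, against 12374.5 TPM in control 4. The fatty acid hydroxylase Cyp4a10 was at 21.6, 10.7, 14.1, 249, 23.9 and 87.8 TPM, and Cyp4a14 at 2.19, 0.680, 3.46, 61.1, 2.68 and 20.8 TPM. In both, control 4 was highest and control 6 next, and without control 4 the CV of Cyp4a10 was 101% in place of 137%. Pck1 of gluconeogenesis was at 1327 TPM against 448 to 975 TPM, Tat, tyrosine aminotransferase, at 997 against 196 to 670 TPM, and Igfbp1, a binding protein of insulin-like growth factors, at 90.05 against 11.7 to 29.0 TPM. Of the 21 measured PPAR-alpha targets 10 were highest in control 4, the highest library for 22.5% of all 8955 genes, and 8 in control 6, the highest for 29.4%.

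Lipid synthesis genes were low in the same library. Scd1, the stearoyl-CoA desaturase, was at 144, 235, 278, 26.4, 133 and 189 TPM, lowest in control 4. Srebf1, the transcription factor of lipid synthesis, was at 2.07 TPM in control 4 and 4.13 to 8.41 TPM in the others. Of 11 measured fatty acid synthesis genes, 8 were lowest in control 4, the lowest library for 13.7% of all genes, and 9 were highest in control 6, the highest for 29.4%. Cholesterol synthesis and uptake genes were lowest in control 4 in 15 of 23 cases. The labels give no feeding state, and its part was not tested.

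Heat shock genes were highest in control 4 in 15 of 17 cases, against 22.5% of all 8955 genes. Hspa8, the constitutive cytosolic HSP70, was at 306, 250, 398, 832, 421 and 326 TPM, and Hsp90aa1, an HSP90, at 41.2, 40.3, 42.9, 103, 44.7 and 39.5 TPM. The stress-inducible Hspa1b was nearly as high in control 1 (9.47 TPM) as in control 4 (9.88 TPM), and its reads are shared with the close copy Hspa1a. Among 31 proteasome subunits 19 were highest in control 4, against the same 22.5%, with a list level of 0.19. Fkbp5, a co-chaperone induced by glucocorticoids, was at 2.52, 3.38, 3.20, 28.1, 6.95 and 19.3 TPM, and of 13 measured glucocorticoid-responsive genes 9 were highest in control 4, again against 22.5%. Car3, a carbonic anhydrase, and Gstp1, a glutathione S-transferase, were lowest in control 4, at 908 and 1967 TPM against 2000 to 3505 and 3718 to 4714 TPM.

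**Figure D5:**
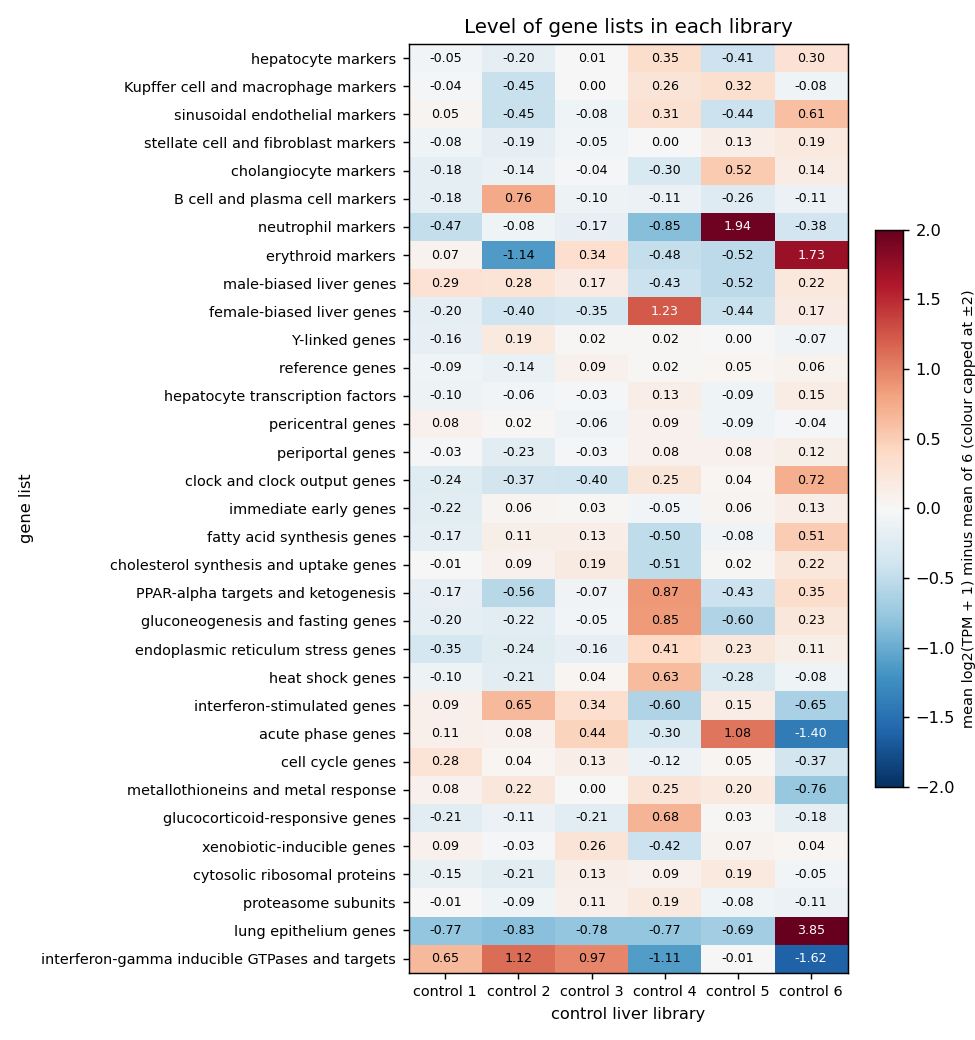
Level of gene lists (rows) in each control (columns), as the mean over genes of log2(TPM + 1) minus the mean of the 6 controls, with colours capped at 2 either side. Genes are the list members with at least 1 TPM in any control. Control 5 stands out in acute phase (1.08) and neutrophil genes (1.94). Control 6 does in lung epithelium (3.85), erythroid (1.73) and acute phase genes (-1.40), and control 4 in PPAR-alpha targets (0.87) and heat shock genes (0.63). The neutrophil level covers 3 of 8 listed genes, of which 2 reached 1 TPM in all controls. The lung level covers 14 genes, of which 1 did, and that list was written after its values were seen.

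Sex-biased genes varied as well. Male-biased genes were lowest in control 5 in 12 of 17 cases, which was lowest for 30.3% of all 8955 genes, and 6 of the 17 are urinary protein genes. Hsd3b5, a male-specific steroid dehydrogenase, was at 99.9, 99.4, 87.5, 29.2, 38.5 and 108 TPM, low in controls 4 and 5. Cyp2a4, a steroid hydroxylase higher in females, was at 1.40, 0.960, 1.04, 21.7, 1.28 and 0.870 TPM, so control 4 alone was high. Cyp2b9, of the same kind, was at 4.43 TPM in control 4 and at most 0.740 TPM in the others. Cyp2a4 has a near-identical relative, Cyp2a5, so its reads are uncertain.

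Clock genes gave another order. Dbp, a clock output factor, was at 1.44, 1.14, 0.920, 1.12, 15.7 and 28.5 TPM, and Nr1d1, a clock repressor, at 1.04, 1.10, 1.58, 2.92, 21.9 and 27.1 TPM. Controls 5 and 6 were the high libraries in both, but the list did not pair them. Of 14 measured clock and clock output genes, 7 were highest in control 6, the highest library for 29.4% of all 8955 genes. Another 6 were highest in control 4 (22.5% of all genes) and 0 in control 5 (19.5%). Control 5 was lowest for 4, against 30.3% of all genes. The list level, over 19 members, was -0.24, -0.37, -0.40, 0.25, 0.04 and 0.72 in controls 1 to 6. Arntl, the activator BMAL1, was at 7.36, 6.75, 6.10, 7.42, 3.90 and 3.88 TPM, lowest in the livers with high Dbp. Clock, its partner, stayed at 2.77 to 3.77 TPM. Rgs16, a regulator of G protein signalling, was high in controls 4 and 6, at 31.1 and 38.5 TPM, and at 1.45 to 2.16 TPM in the others. Cyp7a1, the rate-limiting enzyme of bile acid synthesis, was at 21.7, 52.9, 10.4, 7.67, 1.54 and 6.51 TPM. The labels give no time of sampling, and its part in these values was not tested.

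Globins and metallothioneins had extremes in control 6. The globin Hba-a2 was at 432, 147, 524, 287, 265 and 1915 TPM, and globins held 0.420% of TPM in control 6 and 0.0332 to 0.121% in the others. Alas2, the erythroid enzyme of heme synthesis, did not follow. It was at 68.3 TPM in control 6, 60.5 to 71.6 TPM in controls 1, 2, 3 and 5, and 33.9 TPM in control 4. Mt2, a metallothionein that binds zinc and copper, was at 411, 460, 313, 816, 410 and 48.9 TPM, and Mt1 was lowest in control 6 too, at 217 against 468 to 802 TPM. Of the 6 measured metallothionein and metal response genes, 2 were lowest in control 6, the lowest library for 16.9% of all 8955 genes. The endothelial genes Pecam1 and Lyve1 were at 9.43 and 4.75 TPM in control 6 and at most 2.67 and 0.620 TPM in the others. Stab2 of liver sinusoids was at 6.01 TPM there and 2.19 to 6.04 TPM elsewhere. These genes are on the sinusoidal endothelial list, whose level (0.61) and sum (71.4 TPM) were highest in control 6. That level covers 12 genes, of which 6 reached 1 TPM in all controls. Of these 6, 2 were highest in control 6 and 2 in control 4, which were highest for 29.4% and 22.5% of all genes. The part of lung transcripts in these values was not tested. Without control 6 globins averaged 0.0776% of TPM.

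Zonation genes and hepatocyte transcription factors varied gene by gene, with median CVs of 21.4% for pericentral genes, 25.1% for periportal genes and 21.9% for the factors. Along the liver lobule, enzymes are graded from the portal vein to the central vein. Pericentral genes had list levels between -0.09 and 0.09, and periportal genes between -0.23 and 0.12. Glul, glutamine synthetase of the last pericentral cells, was at 246, 216, 202, 255, 208 and 186 TPM, and Rgn, regucalcin, had a CV of 6.42%. On the periportal side Gls2, glutaminase, had a CV of 8.98%, Hal, histidase, 29.0%, and Sds, serine dehydratase, 52.6%. Hnf4a, the main hepatocyte identity factor, was at 59.9 to 111 TPM, and Cebpa at 39.3 to 122 TPM, highest in control 5. The list of 32 factors had levels between -0.10 and 0.15.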

How the data were processed

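The authors deposited TPM for each gene in each library. The submitters' processing notes name the build GRCm39 and the tools DESeq2, HISAT2 (2.1.0) and RSEM (1.2.8), with no roles. The labels' protocols describe TRIzol extraction of frozen samples, a column clean-up and standard Illumina libraries. How rRNA was treated and whether strand was counted are not given in those sources. Every library adds up to 1000000 TPM within rounding, which hides its depth and leaves no count for an interval. The 6 single-library tables held the same values as the series table in 100% of entries.

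No test was run and no p-value is given, because there is 1 group. Variation was described for genes reaching 1 TPM in every control. Spread is the SD over 6 libraries or the CV. The protocol speaks of replicate mice, but no label ties a library to an animal, so the spread may be partly technical. The level of a list used log2(TPM + 1) and a wider set, the members with at least 1 TPM in any control. Members high in 1 library alone could enter it, which can raise the level of that library. Each gene entered 1 of 37 classes by symbol, in a fixed order. After values were seen, Trf was added to the carriers as the symbol of transferrin and Ugp2 was taken out of the conjugating enzymes. Clone-named transcripts were matched to named ones with BLAST+ 2.17.0 in GENCODE M21 (another build, used for sequence only). Promoter windows are from RefSeq on GRCm38.p6. Calculations used Python 3.11.15, pandas 2.3.3 and numpy 2.4.6, and were tested on simulated data.

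The part of the study, its gene classes and its 37 lists were chosen with earlier results of these data known, and 2 lists (lung epithelium, interferon-gamma) were added after values were seen. Named genes were the 30 most abundant, the 15 most and 15 least variable among those with a mean of at least 10 TPM and a proper symbol, the cell type markers, the 3 most abundant of each class, the 2 most and 2 least variable members of each list, reference and Y-linked genes, and the 5 largest and smallest rank changes among the 100 most abundant. Other list members, and the mitochondrial and urinary protein genes outside these sets, were named after their values were seen. Alternatives were other TPM minimums, scalings, pseudocounts, measures of spread and denominators, and leaving out each library. Results for some genes are not reported here.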

Additional observations from a re-analysis of the deposited data

Results flagged for a closer look

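The values below had 1 library far from the other 5, by the ratio of the gap to its neighbour over the whole range. They are 50 of 207 looked at (39 class shares, 38 list levels and 130 of the genes named in the text). For normally distributed values chance alone flags about 1 in 20, and whether these values are so distributed was not tested. The genes were named partly for their spread, so that share is no result about them.

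In control 5 the outlying values were high in all cases. The share of other secreted liver proteins was 3.33% of TPM and that of actin and tubulin genes 0.304%. The level of neutrophil markers was 1.94, over 3 of 8 listed genes, of which 2 reached 1 TPM in all controls. The acute phase genes Saa1, Saa2, Saa3 and Lcn2 were at 4541, 3114, 2715 and 1792 TPM. The macrophage and white blood cell genes Lyz2, Cd68, Lgals3, S100a9 and S100a8 were at 287, 26.4, 54.8, 52.8 and 39.4 TPM, and Spp1 was at 266 TPM. The collagens Col3a1 and Col1a1 were at 17.9 and 8.40 TPM. Hal was at 66.8 TPM, and the mitochondrial copy Gm28439 at 1450 TPM.

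In control 6 the share of globins was 0.420%, and Hba-a2 was at 1915 TPM. The level of lung epithelium genes was 3.85, with Scgb1a1, Sftpc, Sftpb, Scgb3a2, Cxcl15 and Ager at 4362, 788, 31.0, 26.0, 20.4 and 36.0 TPM. Of the 14 genes in that level, 1 reached 1 TPM in all controls, so genes high in control 6 alone could enter it. The endothelial genes Pecam1 and Lyve1 were at 9.43 and 4.75 TPM, Tfrc was at 15.2 TPM, Cela1 at 46.8 TPM and Krt19 at 3.25 TPM. The level of metallothioneins and metal response genes was low, at -0.76, though only 2 of the 6 genes were lowest there.

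In control 4 the share of heat shock proteins and chaperonins was 0.275%. List levels were 1.23 for female-biased genes, 0.63 for heat shock genes, 0.68 for glucocorticoid-responsive genes and -0.51 for cholesterol synthesis and uptake genes. The female-biased level covers 8 genes, of which 1 reached 1 TPM in all 6 controls. Genes high in control 4 alone could thus enter it, and its height is partly built in. Hspa8 and Hsp90aa1 were at 832 and 103 TPM, Cyp4a10 and Cyp4a14 at 249 and 61.1 TPM, Igfbp1 at 90.05 TPM, Cyp2a4 and Cyp2b9 at 21.7 and 4.43 TPM, and Clock at 3.77 TPM. Gstp1 and Alas2 were low, at 1967 and 33.9 TPM. In control 2 the level of B cell and plasma cell markers was 0.76, Igkc was at 65.0 TPM, and Ly6g was at 0.190 TPM.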

How the results depend on the processing

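No paired analysis was possible because the libraries form 1 group and no test was made. Of 132 recomputed main values 116 stayed within the spread between libraries, or within 1.5 times for counts and CVs. Leaving out 1 library cannot move a mean class share by a full SD, so those checks could not fail. None of the 22 recomputed list levels changed sign. They were taken from the highest or lowest library of a list, so a change was unlikely. A minimum of 5 TPM left 4670 genes, and without a minimum the median CV was 50.8%. Rescaling without mitochondrial genes gave 67.6% for the top 100 genes (64.7% without their copies too, chosen after seeing the data), 8.50% for apolipoproteins, 8.03% for carriers and 3.20% for ribosomal proteins. Rescaling without urinary proteins gave 22.4% for mitochondrial mRNAs, 9.26% for apolipoproteins, 8.72% for carriers and 3.47% for ribosomal proteins. These follow from the smaller total. With copies counted in, likewise added after seeing the data, mitochondrial mRNAs held 24.9%. Which library is highest or lowest moved more. Control 1 was highest for 642 genes, for 996 with median-of-ratios scaling and 331 without mitochondrial genes, and lowest for 1296, or 2115 without mitochondrial genes. Control 6 was lowest for 1510, or 2313 with median-of-ratios scaling. Median-of-ratios scaling shifted the median gene by -0.10 on the log2 scale in control 6 and by -0.02 to 0.04 in the others, and removing mitochondrial genes shifted it by 0.21 to 0.37. Without 1 library the CV of 18 named genes moved by over 1.5 times, 13 of them without control 5.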

Other observations

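B cell and plasma cell markers summed to 75.9 TPM in control 2 and 27.0 to 36.2 TPM in the other 5 controls. Igkc, the immunoglobulin kappa constant region, was at 65.0 TPM there. Of the 8 listed genes 3 reached 1 TPM in every control.

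Some genes belonged to 1 library almost alone. With at least 5 TPM in 1 control and at most 5% of that value in each of the others, control 6 had 18 such genes, 15 of them with a proper symbol, and the other controls had 3 to 11 each, with 0 to 4 proper symbols. Beside the lung genes of the report, those of control 6 included Ager, a receptor abundant in alveolar epithelium (36.0 TPM), and the endothelial genes Tmem100 (6.31 TPM) and Car4 (5.25 TPM). They were chosen after their values were seen.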
